A study of Mus musculus with 48 samples.

Results

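The genes described here are Gpr165, Hpgd, Lpar6, Crybb1, Fam46a, Sft2d2 and Lst1, 7 of the 48526 genes measured in microglia of the mouse hippocampus after irradiation of the brain. They were selected on the expression values of these same libraries, because irradiated was below sham at 1 or more times. The irradiated minus sham values below therefore describe the genes, and no test is given for them. C57BL/6 mice were given 8 Gy of X-rays to the whole brain on postnatal day 21, in 1 dose, or a sham procedure. The hippocampus was taken 2 h, 6 h, 1 day or 1 week later. Each of the 8 groups had 6 animals with 1 library each, 48 libraries in all, and every time had sham animals of its own. Microglia were released enzymatically and sorted on Cx3cr1, a chemokine receptor of microglia that other mononuclear phagocytes also carry, and their RNA was turned into libraries with a QIAseq FX kit meant for single cells. The labels name no genetic change in any group.

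Gpr165 encodes an orphan G protein-coupled receptor. Hpgd encodes the dehydrogenase that inactivates prostaglandins by oxidising their hydroxyl group, and so ends the signal that cyclooxygenases start. Lpar6 encodes a receptor for lysophosphatidic acid, a signalling lipid. Crybb1 encodes a beta crystallin, a structural protein of the eye lens whose messenger RNA is also found in young mouse microglia. Fam46a, now named Tent5a, encodes a non-canonical poly(A) polymerase, Sft2d2 a membrane protein related to a yeast (Saccharomyces cerevisiae) protein of traffic to the Golgi, and Lst1 a small myeloid membrane protein that in human cells binds phosphatases through a tyrosine motif. Microglia at rest depend on a set of surface receptors and transcription factors that is lowered when the cells are activated.

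Reads assigned to genes ran from 175382 to 3856777 per library, with a median of 2212424, and 3 libraries had under 1000000: sham 1 day library 6, irradiated 2 h library 2 and sham 6 h library 4. Levels are RPKM, reads per kilobase of the whole gene span scaled to library size, recomputed with each library's own total. RPM are reads scaled to library size alone. The treatment label was checked with Cdkn1a, a p53 target: it was at most 6.99 RPKM in any sham library and at least 75.0 RPKM in any irradiated one. The sorted cell type was checked with 10 microglial markers, all of them found in every group, which summed to 22931 to 48727 RPM per library. The summed markers of every other cell type examined stayed at or under 964 RPM. The microglial sum ran from 41050 to 45834 in sham and from 31908 to 35223 in irradiated libraries at 6 h. At 1 day it ran from 33903 to 44302 in sham and from 22931 to 34244 in irradiated libraries. Some other sums differed without overlap. At 2 h astrocyte markers had 245 to 447 RPM in sham and 659 to 964 RPM in irradiated libraries. Lymphocyte markers had 429 to 699 RPM and 212 to 352 RPM. At 6 h astrocyte markers had 295 to 345 RPM in sham and 370 to 514 RPM in irradiated libraries. Neural progenitor markers had 5.62 to 31.1 RPM and 36.1 to 70.7 RPM, perivascular macrophage markers 108 to 173 RPM and 41.1 to 82.4 RPM. The part of these shifts in the results was not tested.

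The 6 sham libraries of 6 h were not alike, and this touches most of the genes. Gpr165 was at 24.3 to 27.0 RPKM in libraries 1 to 4 and at 5.17 and 7.25 RPKM in libraries 5 and 6. Crybb1 went the other way, with 2.57 to 4.07 RPKM in libraries 1 to 4 against 11.5 and 11.1 RPKM in libraries 5 and 6. The labels give no reason for this split, so the 6 h differences of the 7 genes are given against all 6 sham libraries and against libraries 5 and 6 alone.

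All 7 genes lie on different chromosomes (GRCm38): Gpr165 at chrX:96713441-96719388, Hpgd at chr8:56294585-56321043, Lpar6 at chr14:73237895-73243294 and Crybb1 at chr5:112255815-112269585, all on the plus strand, and Fam46a at chr9:85320439-85327348, Sft2d2 at chr1:165174337-165194438 and Lst1 at chr17:35185095-35188439 on the minus strand. Exons of the GENCODE annotation fill 100% of the Lpar6 span, 82.5% of Fam46a, 76.4% of Gpr165 and 28.4% of Sft2d2. They fill 12.4% of Lst1, 7.15% of Crybb1 and 6.36% of Hpgd. If reads were counted on exons only, the RPKM of these genes, divided by introns too, understates their level beside the others. Lpar6 lies inside Rb1, the retinoblastoma gene, on the opposite strand and shares 408 exonic bases with it. Hpgd overlaps RP23-466C10.2 on the same strand with 0 shared exonic bases. Strand was not given in the sources used here, and reads of such overlapping genes cannot be told apart with certainty.

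RefSeq (GRCm38.p6) gave a promoter for 6 of the 7 genes, Lst1 being the other one. Those of the pair lower at the most times, of Crybb1 and of the pair lowest at 2 h are shown from 100 bases before to 20 after the RefSeq start, on the gene's own strand, with the letters TATAAA in capitals. Fam46a and Sft2d2 each have 2 RefSeq starts, of which 1 is shown, and the Fam46a window lies wholly inside the gene span given above. The windows are chrX:96713368-96713487, chr8:56294452-56294571, chr5:112255720-112255839, chr9:85327131-85327250 and chr1:165194419-165194538, in the order shown.
Gpr165: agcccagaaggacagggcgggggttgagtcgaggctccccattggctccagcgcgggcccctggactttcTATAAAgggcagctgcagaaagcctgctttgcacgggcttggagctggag
Hpgd: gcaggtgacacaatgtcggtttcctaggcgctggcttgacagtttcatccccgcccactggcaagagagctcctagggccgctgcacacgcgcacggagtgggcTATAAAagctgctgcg
Crybb1: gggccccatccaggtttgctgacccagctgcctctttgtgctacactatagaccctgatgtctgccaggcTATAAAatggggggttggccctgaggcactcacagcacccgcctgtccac
Fam46a: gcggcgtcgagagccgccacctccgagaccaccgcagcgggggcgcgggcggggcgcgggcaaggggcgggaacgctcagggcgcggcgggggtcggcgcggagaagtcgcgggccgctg
Sft2d2: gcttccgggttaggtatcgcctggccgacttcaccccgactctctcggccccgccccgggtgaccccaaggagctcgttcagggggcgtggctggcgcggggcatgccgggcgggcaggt

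The motif search for TATAAA was chosen after these sequences had been seen. Gpr165 and Crybb1 hold it with its first base at -30 from the RefSeq start, and Hpgd holds it at 5. Measured from the start of the gene in the deposited table instead, it lies at -3 in Gpr165, -25 in Crybb1 and -29 in Hpgd. The position thus depends on the start used. Between -40 and -16 from the RefSeq start on the sense strand it occurs in 2 of the 6 promoters and in 1.99% of 32851 RefSeq promoters. Over all 300 bases of the table and both strands it occurs in 5 of 6 and in 13.6% of all. The other motifs searched over those 300 bases on both strands were the PU.1 site GAGGAAGT (0 of 6, 3.20% of all), the MAF half-site TGCTGA (2 of 6, 19.5%), the AP-1 site TGACTCA (0 of 6, 5.20%) and the E-box CACGTG (0 of 6, 7.15%). The 300-base promoters of Fam46a and Sft2d2 were 70.3% and 65.7% GC with 42 and 27 CpG dinucleotides. Those of Gpr165, Hpgd and Crybb1 were 57.0%, 58.0% and 58.3% GC with 8, 12 and 2, and that of Lpar6 was 40% GC with 1. The median over all promoters was 52.7% GC.

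An RPKM scale that counts exonic kilobases only allows genes to be compared if reads were counted on exons only, which is assumed here. On this scale the sham median over 24 libraries rose from Gpr165 at 10.8 through Lst1 at 38.2, Fam46a at 60.9 and Crybb1 at 84.7. It rose further through Lpar6 at 103 and Sft2d2 at 132 to Hpgd at 164. The ranges of every pair of neighbours in this order overlapped. Lpar6 had the widest range, from 43.3 to 793, and Hpgd ran from 119 to 299. Lst1 rested on the fewest reads, 2 to 136 per library with a median of 29.0, and Gpr165 on 3 to 468 with a median of 82.0, so single values of these genes are imprecise. Sft2d2 had a median of 1292 reads and Lpar6 of 1119.

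Gpr165, the orphan receptor, was lower in irradiated animals at 2 h, 6 h and 1 day. Against all 6 sham libraries its 6 h difference was the fifth lowest of the 10132 genes kept by a filter on low values. Since these contrasts were used to choose the gene, nothing is read from its rank. All 7 genes passed that filter, which asked for an RPKM of at least 1 in 6 libraries. At 2 h the lowest, median and highest sham libraries had 8.33, 16.6 and 22.6 RPKM and the irradiated ones 3.51, 5.84 and 8.37 RPKM. At this time 5 of 6 irradiated libraries lay below every sham library. The irradiated mean of 6.05 ± 1.70 (SD, n = 6) was 38.6% of the sham mean of 15.6 ± 5.35, a difference of -1.21 ± 0.32 (SE) on the log2(RPKM + 1) scale, which is used for all differences below. Each SE comes from 1 estimate of spread per gene, shared by all groups of the fit. It is therefore the same at all 4 times and does not measure the spread of the 2 groups compared alone. In bulk samples, fewer cells that carry a messenger RNA and less of it per cell cannot be told apart.

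At 6 h the sham libraries held 27.0, 24.3, 24.3, 25.7, 5.17 and 7.25 RPKM of Gpr165 in the order of their numbers. The irradiated libraries held 1.00, 2.71, 1.79, 1.46, 1.60 and 0.726 RPKM, on 8 to 33 reads each. Every irradiated library thus lay below every sham library, also below the low pair. The irradiated mean of 1.55 ± 0.69 (SD, n = 6) was 8.16% of the sham mean of 19.0 ± 9.95, with a difference of -2.78 ± 0.32 (SE). Against sham libraries 5 and 6 alone it was 24.9% of 6.21, with a difference of -1.53 ± 0.37 (SE).

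At 1 day sham libraries had 5.77 to 10.17 RPKM of Gpr165 with a median of 7.41, and irradiated ones 0.219 to 3.65 RPKM with a median of 1.71. The groups did not overlap, and the difference was -1.71 ± 0.32 (SE). The lowest irradiated library rested on 3 reads. At 1 week sham libraries had 3.49 to 7.80 RPKM and irradiated ones 1.97 to 7.58 RPKM, largely the same range, and the difference was -0.46 ± 0.32 (SE). The sham means were 15.6, 19.0, 7.56 and 5.79 RPKM from 2 h to 1 week.

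Hpgd, the prostaglandin-inactivating enzyme, was lower at the same 3 times by a smaller and steadier amount. At 2 h sham libraries had 10.5, 12.2 and 16.4 RPKM (lowest, median, highest) and irradiated ones 3.69, 5.74 and 7.76 RPKM. At 6 h the sham values were 19.0, 13.9, 14.5, 16.01, 8.98 and 10.03 RPKM and the irradiated values 4.61, 4.50, 4.67, 3.35, 6.17 and 4.20 RPKM, in the order of library numbers. At 1 day sham libraries had 8.19, 9.22 and 10.8 RPKM and irradiated ones 3.85, 4.16 and 5.08 RPKM. At each of these times all 6 irradiated libraries lay below all 6 sham libraries.

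The irradiated mean of Hpgd was 43.5%, 33.3% and 46.0% of the sham mean at 2 h, 6 h and 1 day. The differences were -1.09, -1.38 and -0.96, each ± 0.14 (SE, n = 6 per group), and -0.93 ± 0.18 (SE) at 6 h against sham libraries 5 and 6. At 1 week sham libraries had 7.57 to 11.5 RPKM and irradiated ones 6.21 to 8.85 RPKM, and the difference of -0.17 ± 0.14 (SE) was little more than its error. The neighbour RP23-466C10.2, which overlaps Hpgd, differed by -0.81, -0.86, -1.03 and -0.22 at the 4 times, each ± 0.26 (SE), and by -0.50 ± 0.36 (SE) at 6 h against sham libraries 5 and 6. Its libraries held 3 to 94 reads each, and how reads in the overlap were assigned was not given in the sources used here.

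Lpar6, the lysophosphatidic acid receptor, was lower in irradiated animals at 6 h only against the whole sham group, and the label of a lost gene is not borne out at the other times. At 6 h the sham libraries held 284, 438, 472, 462, 87.7 and 85.0 RPKM and the irradiated ones 49.99, 105, 109, 44.1, 108 and 68.9 RPKM, in the order of library numbers. The irradiated libraries lay below sham libraries 1 to 4 and on both sides of libraries 5 and 6. The difference was -1.67 ± 0.40 (SE) with all 6 sham libraries and -0.19 ± 0.49 (SE) with libraries 5 and 6, where the irradiated mean was 93.6% of the sham mean.

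At 2 h the Lpar6 values in sham were 110, 115, 246, 793, 333 and 319 RPKM, the widest spread of any group of any of the 7 genes but one, with an SD of 78.7% of the mean. Irradiated libraries held 199 to 561 RPKM with a median of 329, within that range but all above sham libraries 1 and 2. The difference was 0.49 ± 0.40 (SE). At 1 day sham libraries had 58.6 to 121 RPKM and irradiated ones 54.5 to 86.3 RPKM, and the difference was -0.33 ± 0.40 (SE). At 1 week the values were 43.3 to 106 RPKM in sham and 51.5 to 173 RPKM in irradiated libraries, with 3 of 6 irradiated libraries above every sham library and a difference of 0.43 ± 0.40 (SE). The sham means were 319 and 305 RPKM at 2 h and 6 h and 87.5 and 72.7 RPKM at 1 day and 1 week. Sham libraries 5 and 6 of 6 h, at 87.7 and 85.0 RPKM, were thus at the level of the later sham groups. Rb1, which encloses Lpar6, was left out by the filter, at 0.40 ± 0.14 RPKM in sham and 0.76 ± 0.16 RPKM in irradiated libraries at 2 h (SD, n = 6). There all 6 irradiated libraries lay above every sham library.

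**Figure D1:**
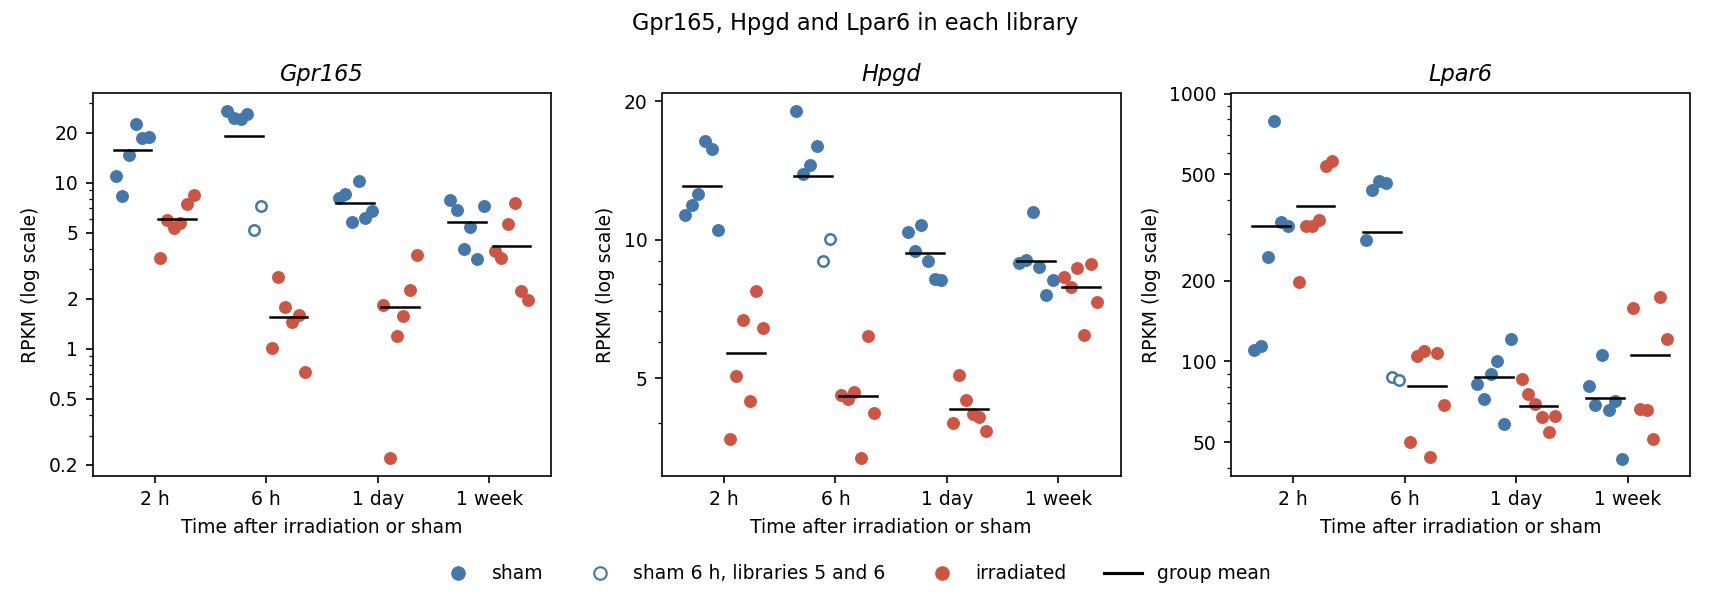
RPKM on a log scale of Gpr165, Hpgd and Lpar6 in each of the 48 libraries, by time after the procedure. Each point is 1 library, blue for sham and red for irradiated, open circles are sham libraries 5 and 6 of 6 h, and black lines are group means of the 6 RPKM values. Irradiated points of Gpr165 and Hpgd lie below all sham points at 6 h and 1 day, while those of Lpar6 lie among the open circles at 6 h.

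Fam46a, the poly(A) polymerase, and Sft2d2, the membrane protein of Golgi traffic, were lowest against sham at 2 h. At 2 h sham libraries had 35.2, 40.8 and 69.5 RPKM of Fam46a (lowest, median, highest) and irradiated ones 11.9, 19.1 and 22.5 RPKM, without overlap. The mean was 18.5 ± 3.6 RPKM in irradiated and 45.5 ± 12.5 RPKM in sham libraries (SD, n = 6), with a difference of -1.24 ± 0.18 (SE). At 6 h the ranges were 38.4 to 58.7 RPKM in sham and 29.5 to 47.7 RPKM in irradiated libraries, and they overlapped. The 6 h difference was -0.28 ± 0.18 (SE), or -0.44 ± 0.26 (SE) against sham libraries 5 and 6.

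At 1 day Fam46a stood higher in irradiated libraries, at 65.9, 69.9 and 107 RPKM against 45.1, 53.7 and 108 RPKM in sham (lowest, median, highest). The difference was 0.39 ± 0.18 (SE). The highest sham value came from library 6 with 131 reads of the gene, the shallowest library. Without that library the difference was 0.57 ± 0.17 (SE). At 1 week the ranges were 38.6 to 58.5 RPKM in sham and 26.3 to 51.6 RPKM in irradiated libraries, with a difference of -0.48 ± 0.18 (SE).

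Sft2d2 at 2 h ran from 24.9 to 70.6 RPKM in sham libraries, with a median of 33.0, and from 12.7 to 21.3 RPKM in irradiated ones, with a median of 15.9. The groups did not overlap. The irradiated mean of 16.2 ± 3.62 was 41.2% of the sham mean of 39.3 ± 17.8 (SD, n = 6), a difference of -1.15 ± 0.20 (SE). At 6 h the sham values were 24.5, 26.0, 23.1, 28.7, 37.6 and 38.8 RPKM and the irradiated ones 20.3, 23.1, 20.3, 30.0, 20.9 and 19.96 RPKM. All irradiated libraries lay below sham libraries 5 and 6, but not below libraries 1 to 4. The difference was -0.38 ± 0.20 (SE) against the 6 sham libraries and -0.76 ± 0.27 (SE) against libraries 5 and 6.

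At 1 day the Sft2d2 means were close, 38.1 ± 6.02 RPKM in irradiated and 41.9 ± 7.52 RPKM in sham libraries (SD, n = 6), with a difference of -0.13 ± 0.20 (SE). At 1 week sham libraries had 33.0, 40.1 and 56.5 RPKM and irradiated ones 16.2, 25.2 and 33.8 RPKM (lowest, median, highest). There 4 of 6 irradiated libraries lay below every sham library, and the difference was -0.71 ± 0.20 (SE). Leaving out 1 library at a time gave differences from -0.80 to -0.59.

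**Figure D2:**
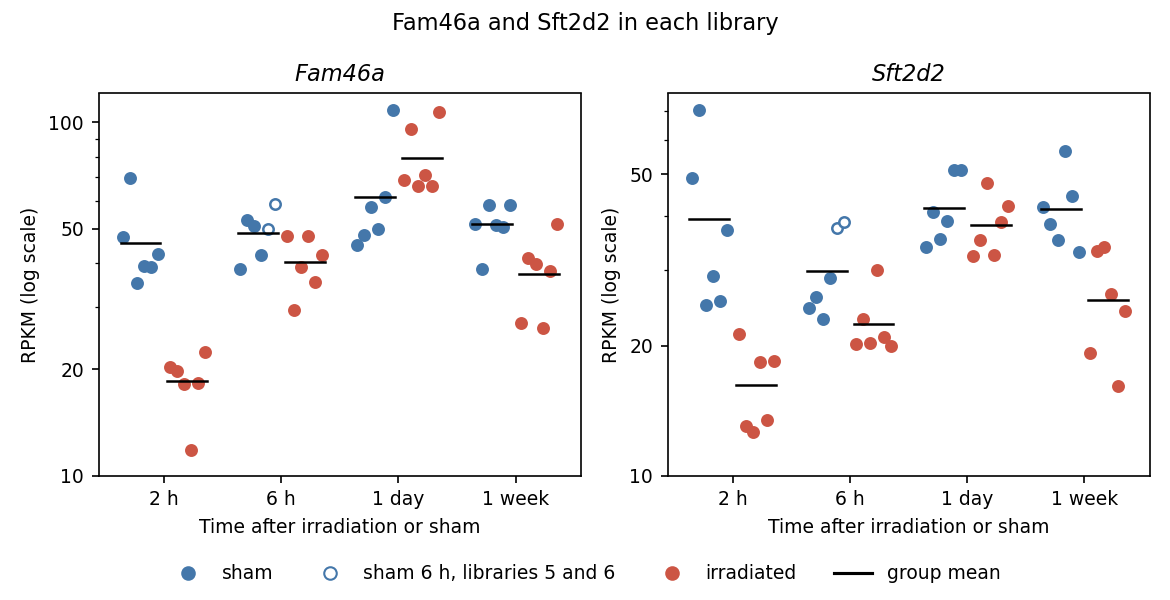
RPKM on a log scale of Fam46a and Sft2d2 in each of the 48 libraries, by time after the procedure, with colours, open circles and lines as defined in the legend (lines are means of 6 RPKM values). At 2 h the red irradiated points of both genes lie below all blue sham points, and at 1 day the ranges overlap, with the Fam46a mean higher in irradiated libraries.

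Crybb1, the crystallin, and Lst1, the myeloid membrane protein, were lower in irradiated animals mainly at 1 day. Crybb1 at 1 day was at 10.6, 8.54, 6.72, 11.1, 6.15 and 7.45 RPKM in sham libraries and at 2.69, 3.27, 2.03, 2.59, 2.82 and 3.0 RPKM in irradiated ones. Every irradiated library lay below every sham library, and the irradiated libraries were close to each other. The irradiated mean of 2.73 ± 0.42 was 32.4% of the sham mean of 8.43 ± 2.05 (SD, n = 6), with a difference of -1.32 ± 0.28 (SE). At 2 h the ranges were 1.75 to 7.17 RPKM in sham and 1.09 to 3.73 RPKM in irradiated libraries, with a difference of -0.34 ± 0.28 (SE).

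At 6 h Crybb1 depended on the sham libraries used. Irradiated libraries held 3.61 to 7.69 RPKM, between sham libraries 1 to 4 at 2.57 to 4.07 RPKM and libraries 5 and 6 at 11.5 and 11.1 RPKM, with a small overlap with the former. The difference was 0.09 ± 0.28 (SE) with all 6 sham libraries and -0.92 ± 0.35 (SE) with libraries 5 and 6, where the irradiated mean was 50.03% of the sham mean. At 1 week sham libraries had 4.53 to 13.2 RPKM and irradiated ones 2.72 to 6.09 RPKM, and the difference was -0.37 ± 0.28 (SE).

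Lst1 at 1 day was at 12.3, 9.35, 8.53, 5.58, 8.37 and 3.41 RPKM in sham libraries and at 1.87, 2.07, 1.56, 1.8, 3.12 and 6.66 RPKM in irradiated ones. In irradiated animals 5 of 6 libraries lay below every sham library, and library 6 lay among them. The irradiated mean of 2.85 ± 1.94 was 35.9% of the sham mean of 7.93 ± 3.09 (SD, n = 6), with a difference of -1.25 ± 0.32 (SE). The lowest sham value rested on 2 reads. Without sham library 1 the difference was -1.11 ± 0.34 (SE).

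At 2 h, 6 h and 1 week the differences of Lst1 were 0.045, 0.14 and -0.19, each ± 0.32 (SE), and at 6 h against sham libraries 5 and 6 it was -0.26 ± 0.44 (SE). The ranges of sham and irradiated libraries overlapped at each of these times. Lst1 is also expressed by monocytes and neutrophils. At 1 day the 10 markers of those cells summed to 34.5 to 106 RPM in irradiated libraries, with a median of 73.0, and to 17.4 to 96.9 in sham libraries, with a median of 28.0. Of these markers 5 were at 0 in all irradiated and 6 in all sham libraries of 1 day. The part of these cells in the Lst1 values was not tested.

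**Figure D3:**
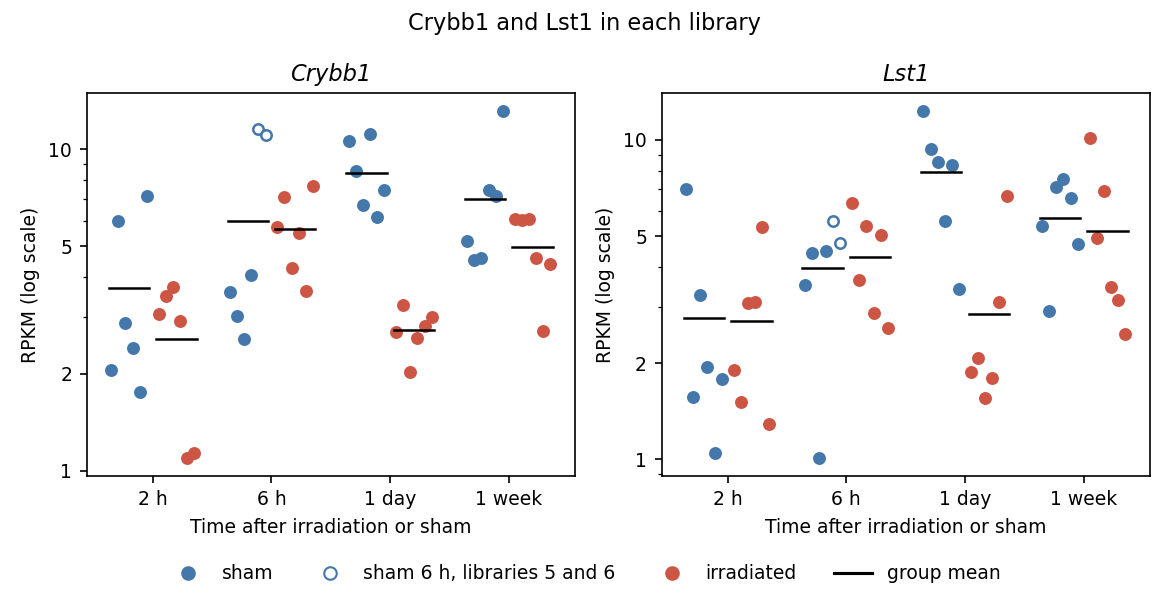
RPKM on a log scale of Crybb1 and Lst1 in each of the 48 libraries, by time after the procedure, with colours, open circles and lines as defined in the legend (lines are means of 6 RPKM values). At 1 day irradiated Crybb1 points lie between 2.03 and 3.27 RPKM, below all sham points, and 5 of 6 irradiated Lst1 points lie between 1.56 and 3.12 RPKM, below all sham points of that gene.

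Across the 4 times the genes thus differed in when they were low. Genes without overlap, every irradiated library below every sham library, were Hpgd, Fam46a and Sft2d2 at 2 h (2.03% of all genes), Gpr165 and Hpgd at 6 h (2.88%), and Gpr165, Hpgd and Crybb1 at 1 day (0.691%). At 1 week there were 0 of 7 (1.12%). With the 2 sham libraries 5 and 6 at 6 h there were 5 of 7, Gpr165, Hpgd, Crybb1, Fam46a and Sft2d2, but 8.15% of all genes did the same. Since these contrasts were used to choose the genes, nothing is read from these counts. The median difference of the 7 genes was -1.09, -0.38, -0.96 and -0.37 from 2 h to 1 week, and -0.76 at 6 h with sham libraries 5 and 6. The medians over all genes were -0.011, 0.083, 0, 0.047 and 0.0037, in the same order.

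**Figure D4:**
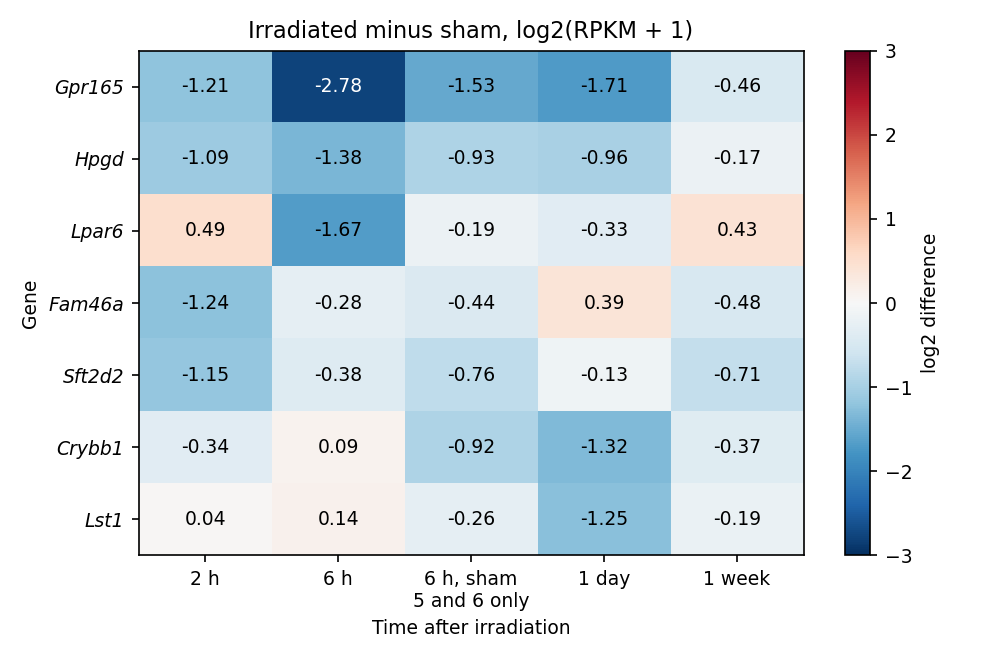
Irradiated minus sham difference on the log2(RPKM + 1) scale for the 7 genes (vertical axis) at each time (horizontal axis), with the 6 h comparison shown against all 6 sham libraries and against libraries 5 and 6 only. Blue is lower and red higher in irradiated animals; Lpar6 goes from -1.67 to -0.19 and Crybb1 from 0.09 to -0.92 between the 6 h columns.

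**Figure D5:**
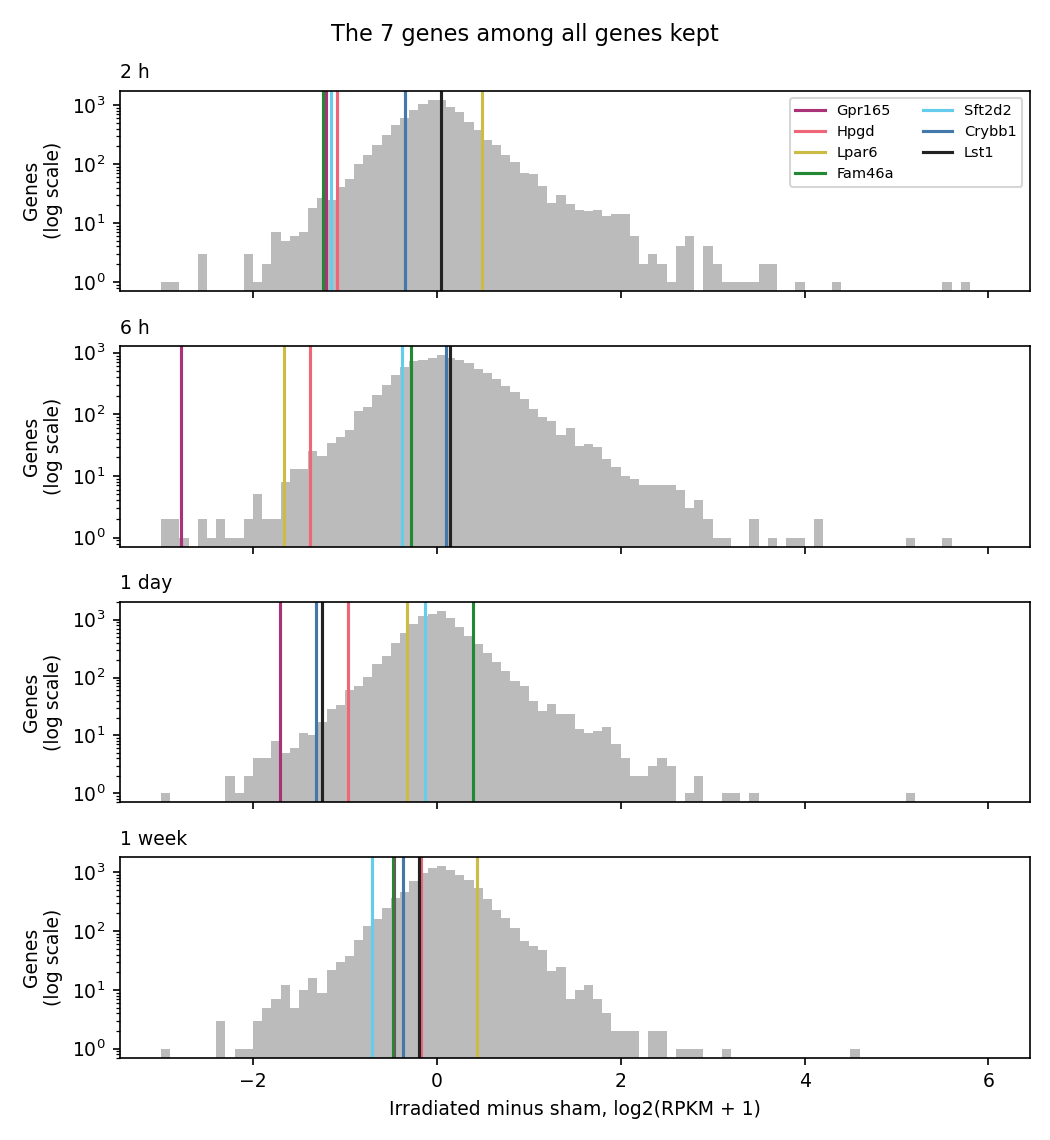
Number of genes (log scale) in each interval of the irradiated minus sham difference on the log2(RPKM + 1) scale, for all 10132 genes kept, with a coloured line for each of the 7 genes. At 6 h the line of Gpr165, at -2.78, stands at the lower end of all genes, while at 1 week the 7 lines run from -0.71 to 0.43.

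The likeness of the 7 genes to each other across the 48 libraries is given as Pearson correlations of log2(RPKM + 1) without a test, since libraries of a group share treatment, time and the split of the 6 h sham animals. Gpr165 and Hpgd had r = 0.82 (0.84 within the 24 sham and 0.42 within the 24 irradiated libraries). Fam46a and Sft2d2 had r = 0.74 (0.58 and 0.80), and Crybb1 and Lst1 r = 0.51 (0.50 and 0.42). Gpr165 and Lpar6 had r = 0.62 (0.88 and 0.61), Hpgd and Lpar6 r = 0.46 (0.85 and 0.34), and Lpar6 and Crybb1 r = -0.53 (-0.69 and -0.54). Other pairs also ran in opposite directions within 1 or both arms. Hpgd and Crybb1 had r = 0.07 (-0.72 and -0.0007), and Gpr165 and Sft2d2 r = 0.07 (-0.67 and -0.41). For Gpr165 and Fam46a r was -0.17 (-0.48 and -0.70), and for Lpar6 and Sft2d2 -0.52 (-0.65 and -0.76). The genes were thus not alike as a set, and not every pair is given here.

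Among all genes kept, the levels most like Gpr165 were those of Gpr155 (r = 0.91), Sepp1 (0.89) and Tmem170b (0.88), and most like Hpgd those of Sesn1 (0.88), Gpr34 (0.85) and Gpr155 (0.84), over 48 libraries. Within the 24 sham and the 24 irradiated libraries Hpgd had r of 0.72 and 0.77 with Sesn1, 0.86 and 0.48 with Gpr34, and 0.75 and 0.50 with Gpr155. Lpar6 was most like Galnt1 (0.91), Tmem30a (0.91) and Ncl (0.89). Fam46a was most like Acly (0.81), Abcg1 (0.80) and Cebpg (0.80), and among the genes most like Sft2d2 were Snx18 (0.87) and Nek7 (0.85). Crybb1 and Lst1 had weaker partners, Gpr146 (0.72), Ypel3 (0.70) and Mgll (0.69) for the former and Padi2 (0.66), Tmem176a (0.61) and Rgs10 (0.60) for the latter. Within sham and irradiated libraries Lst1 had r of 0.64 and 0.63 with Padi2, 0.56 and 0.64 with Tmem176a, and 0.72 and 0.45 with Rgs10.

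The other genes of the same pathways come from lists made with earlier results of these data known, and were tested with limma, with Benjamini-Hochberg adjusted p over all 10132 genes. A gene is said to have risen or fallen, or to be called, where that p was under 0.05. Around Gpr165, 22 of 25 listed G protein-coupled receptors of microglia were tested. At 2 h 4 rose and 8 fell, at 6 h 7 rose and 5 fell, at 1 day 4 rose and 5 fell, and at 1 week 1 rose, where 4.6%, 12.9%, 2.9% and 2.03% of all genes rose and 4.02%, 8.0%, 1.39% and 1.51% fell. The other lists are read against the same shares of all genes. The median difference of the 22 was -0.17, -0.22, -0.05 and -0.07. Gpr155, a lysosomal protein that senses cholesterol, was lower in all 6 irradiated libraries at 2 h, 6 h and 1 day, by -0.95, -1.39 and -0.58, each ± 0.13 (SE), with limma adjusted p of 1.0e-06, 6.6e-11 and 0.0036, and -0.13 at 1 week (adjusted p = 0.66). Its 6 h difference against sham libraries 5 and 6 was -1.06. C3ar1, the receptor for complement C3a, rose from 36.0 ± 3.19 to 94.7 ± 12.1 RPKM at 6 h (SD, n = 6; difference 1.37, limma adjusted p = 6.0e-12; 1.24 with sham libraries 5 and 6). Gpr84, a receptor for medium-chain fatty acids, rose most at 2 h, from 27.8 ± 6.36 to 120 ± 22.8 RPKM (SD, n = 6; difference 2.08, limma adjusted p = 6.3e-11). With sham libraries 5 and 6 alone 3 receptors rose and 3 fell at 6 h, where 1.56% of all genes rose and 0.533% fell, and the 6 h difference of Gpr84 was 0.64 (adjusted p = 0.30).

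Around Hpgd, 12 of 26 listed genes of prostaglandin synthesis, breakdown and reception were tested. At 2 h 2 rose and 2 fell, at 6 h 1 rose and 2 fell, and at 1 day and 1 week 1 rose at each. Of all genes 4.6% rose and 4.02% fell at 2 h, 12.9% and 8.0% at 6 h, and 2.9% and 2.03% rose at 1 day and 1 week. At 6 h 1 of the 12 rose and 1 fell with sham libraries 5 and 6 alone. The median difference of the 12 was -0.19, 0.25, 0.0065 and 0.04. Pla2g4a, the cytosolic phospholipase that frees arachidonic acid, rose at all 4 times, by 0.78, 0.79, 0.56 and 0.61, each ± 0.09 (SE), with limma adjusted p of 1.6e-08, 1.0e-08, 2.9e-05 and 3.9e-05, and by 0.68 at 6 h with sham libraries 5 and 6. Ptgs1, the constitutive cyclooxygenase, fell from 56.2 ± 6.97 to 34.7 ± 5.17 RPKM at 2 h and from 57.1 ± 2.61 to 30.0 ± 1.57 RPKM at 6 h (SD, n = 6), with limma adjusted p of 9.2e-07 and 9.7e-10. Its 6 h difference was -0.91 against the 6 sham libraries and -0.95 against libraries 5 and 6. At 1 day its difference was -0.24 (adjusted p = 0.17). At 1 week Ptgs1 stood the other way, with all 6 irradiated libraries above every sham library and means of 62.1 ± 4.85 and 50.6 ± 2.83 RPKM (SD, n = 6), a difference of 0.29 that did not pass the limma test (adjusted p = 0.078). Ptgs2, the inducible cyclooxygenase, rose at 2 h from 0.452 ± 0.403 to 2.32 ± 0.763 RPKM (SD, n = 6; difference 1.2, limma adjusted p = 6.5e-08). At 6 h its difference was 0.36 (adjusted p = 0.082), or 0.56 with sham libraries 5 and 6 (adjusted p = 0.22).

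Around Lpar6, 4 of 17 listed genes of lysophosphatidic acid synthesis, reception and downstream signalling were tested, and 2 rose at 6 h, where 12.9% of all genes rose. Limma called 0 of 4 at 2 h, 1 day and 1 week (0, 0 and 2 at an unadjusted p under 0.05). The median difference of the 4 was -0.11, 0.33, -0.11 and -0.21 from 2 h to 1 week. Arhgef1, a guanine nucleotide exchange factor, and Gna12, a G protein subunit, rose by 0.81 and 0.55 at 6 h (limma adjusted p = 0.0046 and 0.0076). With sham libraries 5 and 6 alone these differences were -0.09 and -0.03 (adjusted p = 0.97 and 1.00). Like Lpar6 itself, both therefore depended on the sham libraries of 6 h.

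Around Fam46a, 6 of 13 listed poly(A) and uridyl polymerases were tested. At 2 h and 1 day limma called 0 of 6, also 0 at an unadjusted p under 0.05, and the median difference was 0.02, 0.15, -0.08 and -0.09 from 2 h to 1 week. Fam46c, of the same family, rose at 6 h by 0.48 ± 0.12 (SE; limma adjusted p = 0.0024; 0.58 with sham libraries 5 and 6) and fell at 1 week by 0.56 on the log2 scale (adjusted p = 0.0035). Papola, the canonical nuclear poly(A) polymerase, had a difference of -0.75 ± 0.17 (SE) at 1 week (limma adjusted p = 0.0060). Zcchc6, a uridylyltransferase, had a difference of -0.42 at 6 h (limma adjusted p = 0.016) but -0.07 with sham libraries 5 and 6 (adjusted p = 0.97).

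Around Sft2d2, 16 of 22 listed genes of Golgi and endosome SNARE transport were tested. At 6 h 2 rose and 4 fell, where 12.9% of all genes rose and 8.0% fell, and with sham libraries 5 and 6 alone 0 rose (also 0 at an unadjusted p under 0.05) and 1 fell. At 2 h, 1 day and 1 week limma called 0 of 16 (2, 2 and 3 at an unadjusted p under 0.05). The median difference was 0.02, -0.18, -0.15 and 0.08 from 2 h to 1 week. Vti1b, a SNARE of late endosomes, rose at 6 h by 0.54 ± 0.16 (SE; limma adjusted p = 0.011). Vamp4 and Stx5a, SNAREs of the trans and early Golgi, had differences of -0.38 and -0.58 (limma adjusted p = 0.0047 and 0.025). With sham libraries 5 and 6 alone these 3 differences were 0.27, -0.14 and -0.33 (adjusted p = 0.79, 0.87 and 0.76).

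Around Crybb1, 2 of 13 listed crystallins and crystallin-like genes were tested and limma called 0 at any time, also 0 at an unadjusted p under 0.05 with all 6 sham libraries. Their median difference was -0.18, 0.29, 0.0011 and 0.10 from 2 h to 1 week. Cryba4, another beta crystallin, was at 4.84 ± 1.02 RPKM in sham and 5.30 ± 3.09 RPKM in irradiated libraries at 1 day (SD, n = 6; difference -0.0036, limma adjusted p = 1.0), the time at which Crybb1 was lowest against sham. Of 25 genes of homeostatic microglia all were tested. Some of them, P2ry12 and Gpr34 included, are also on the list of receptors around Gpr165, so the counts of these lists are not separate. There 8 fell and 0 rose at 2 h, 12 fell and 3 rose at 6 h, 8 fell and 0 rose at 1 day, and 2 fell and 3 rose at 1 week, where 4.02%, 8.0%, 1.39% and 1.51% of all genes fell. At an unadjusted p under 0.05 limma gave 0 rising at 2 h and 1 day too, and the median difference was -0.31, -0.30, -0.39 and 0.12. P2ry12, the ADP receptor of resting microglia, was lower in all 6 irradiated libraries at 2 h, 6 h and 1 day, by -0.60, -1.13 and -0.79, each ± 0.13 (SE), with limma adjusted p of 0.0010, 8.0e-09 and 3.4e-05, and by -1.08 at 6 h with sham libraries 5 and 6. Siglech, a lectin, fell most at 1 day, from 142 ± 26.9 to 64.3 ± 9.65 RPKM (SD, n = 6; difference -1.12, limma adjusted p = 7.0e-10). Slc2a5, a fructose transporter, fell most at 6 h, from 26.3 ± 3.67 to 9.02 ± 1.17 RPKM (SD, n = 6; difference -1.44, limma adjusted p = 1.0e-08; -1.50 with sham libraries 5 and 6). With sham libraries 5 and 6 alone 3 of the 25 genes fell at 6 h and 0 rose.

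Around Lst1, 12 of 15 listed neighbours in the major histocompatibility class III region and phosphatases were tested. At 2 h 1 rose, at 6 h 5 rose, at 1 day 1 rose and at 1 week limma called 0 of 12 (1 at an unadjusted p under 0.05), and 0 fell at any time (at most 1 at an unadjusted p under 0.05). Of all genes 4.6%, 12.9%, 2.9% and 2.03% rose at these times. Of the 12 genes 1, Tnf, rose at 6 h with sham libraries 5 and 6 alone. The median difference was 0.09, 0.47, 0.09 and 0.07 from 2 h to 1 week. Tnf, the cytokine encoded beside Lst1, had differences of 3.04, 2.76 and 1.85 at 2 h, 6 h and 1 day, each ± 0.45 (SE; limma adjusted p = 2.7e-06, 1.3e-05 and 0.0070). Ddx39b, an RNA helicase, and Clic1, a chloride channel protein, rose at 6 h by 0.86 and 0.80 (limma adjusted p = 0.00019 and 0.0022). With sham libraries 5 and 6 alone their differences were 0.16 and 0.07 (adjusted p = 0.92 and 0.98), while that of Tnf was 2.61 (adjusted p = 0.013).

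As a check of the response to radiation, all 8 listed p53 targets rose at 2 h, 6 h and 1 day and 7 of 8 at 1 week, also with sham libraries 5 and 6 alone at 6 h (8 of 8). Ccng1, a cyclin-like p53 target, went from 9.71 ± 1.19 to 119 ± 14.1 RPKM at 6 h and from 9.96 ± 1.81 to 32.8 ± 3.61 RPKM at 1 week (SD, n = 6). At that time Gpr165 and Hpgd were at 71.3% and 87.6% of their sham means.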

How the data were processed

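Bulk RNA was sequenced from sorted hippocampal microglia of 48 mice. Per the submitters' processing notes, STAR 2.6.1d, featureCounts 1.5.1, bcl2fastq 2.20.0 and FastQC 0.11.8 were used with GRCm38 and mm10; the annotation and strand setting are not given in the sources used here. The authors deposited RPKM, which are whole reads divided by the gene span, introns included, and by a library total that in 97.95% of values above 0 was another library's. Reads were recovered (100% whole within 0.001 reads, also checked on simulated data) and RPKM recomputed with each library's own total. Totals of 175382 to 3856777 reads limit the precision of low genes, and counting error is on reads, not molecules.

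In limma 3.58.1 (R 4.3.3) a mean for each of the 8 groups was fitted to log2(RPKM + 1) for 10132 genes with RPKM of at least 1 in 6 libraries, with trend and robust variances and 40 residual degrees of freedom. Adjusted p are two-sided Benjamini-Hochberg values with a threshold of 0.05. A difference on the log2(RPKM + 1) scale understates the change of low genes.

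The 7 genes and all gene lists were chosen with earlier results of these data known, so no list is independent evidence. Named genes are the 7, per list up to 3 others with the smallest adjusted p (up to 2 of highest level where none passed), the 3 genes most correlated with each of the 7 (1 of those for Sft2d2 is not reported here), overlapping genes and Cdkn1a. Alternatives were the scaling, the filter, the pseudocount, array weights, the 12 libraries of a time alone, the deposited values, a replicate block, other 6 h sham sets, no libraries under 1000000 reads and each library left out. Exonic lengths are from GENCODE and promoters from RefSeq.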

Additional observations from a re-analysis of the deposited data

Results flagged for a closer look

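In 8 of the 56 combinations of gene and group, 1 library stood far from the other 5 in the RPKM of 1 of the 7 genes. By chance the rule marks about 1 in 20 groups of normally distributed values. RPKM need not be distributed so, and no excess is read from this count. The values were 11.5 for Hpgd in sham 1 week library 3, 793 for Lpar6 in sham 2 h library 4, 13.2 for Crybb1 in sham 1 week library 6, 69.5 for Fam46a in sham 2 h library 2, 108 for Fam46a in sham 1 day library 6, 30.0 for Sft2d2 in irradiated 6 h library 4, 7.0 for Lst1 in sham 2 h library 1 and 6.66 for Lst1 in irradiated 1 day library 6. Each was the highest of its group, and that of Fam46a in sham 1 day library 6 came from the shallowest library, while those of Lst1 rested on 34 and 42 reads.

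Fam46a was lower in irradiated libraries at 2 h (-1.24) and 6 h (-0.28) and higher at 1 day (0.39); this difference between times was not tested, since these contrasts were used to choose the gene.

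Several list genes had an irradiated minus sham difference that changed between adjacent times, by limma on the change itself, adjusted over all genes. From 2 h to 6 h it rose for Clic1 by 1.00 (adjusted p = 0.015), Ddx39b by 0.89 (0.012) and Fam46c by 0.66 (0.0092). Over the same step it changed by -0.95 for Gpr84 (limma adjusted p = 0.026), -0.84 for Ptgs2 (0.0087) and -0.73 for Slc2a5 (0.041). From 6 h to 1 day it changed by -0.68 for Ccng1 (limma adjusted p = 0.012), -1.05 for Phlda3 (0.012), -0.71 for Fam46c (0.0093), -0.71 for Gna12 (0.050), -0.58 for Siglech (0.028) and -0.85 for Vti1b (0.019), and by 0.81 for Gpr155 (0.0089) and 0.66 for Ptgs1 (0.0024). From 1 day to 1 week it changed by -1.39 for C3ar1 (limma adjusted p = 1.1e-06), -1.18 for Ccng1 (7.6e-06) and -0.76 for Papola (0.045), and by 1.19 for Siglech (4.2e-06), 1.32 for Slc2a5 (0.00042) and 0.53 for Ptgs1 (0.014). The steps to and from 6 h use all 6 sham libraries of that time, whose split is described above.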

How the results depend on the processing

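The median difference of the 7 genes kept its direction, and its value within the spread between replicates, under all 82 alternatives. Of 574 alternative values of single genes among the 7, 562 moved by less than that spread and 12 by more. Since the 7 genes were chosen as lower in irradiated libraries of these same data, nothing is read from the kept direction. The number of called genes was 873, 2120, 435 and 359 at 2 h, 6 h, 1 day and 1 week. With the 12 libraries of the time fitted alone it was 542 at 2 h and 254 at 1 day. Array weights gave 743 at 1 day and 766 at 1 week, and no filter gave 235 at 1 week. The deposited values, divided by the totals of other libraries, gave 52, 64, 39 and 11. At 6 h sham libraries 5 and 6 alone gave 212 and sham libraries 1 to 4 alone gave 3062, each with fewer sham libraries. Against libraries 5 and 6 Arhgef1 and Gna12 turned to -0.094 and -0.026. The cause was not tested for any setting. Leaving out 1 library at a time gave 732 to 853 at 2 h, 1629 to 2537 at 6 h, 343 to 495 at 1 day and 137 to 495 at 1 week. The fewest at 1 week came without sham library 4 (137), irradiated library 5 (158) or irradiated library 1 (165); it was 205 without irradiated library 6, 225 without sham library 5 and 226 without irradiated library 4.

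With the replicate number as a replicate block the counts were 861, 2079, 427 and 312. Same-numbered sham and irradiated libraries deviated together at most weakly. Over 24 pairs r ran from -0.11 to 0.14, 2 pairs were over 0.1, and 7 of 24 correlated best with their own number. At 2 h every r was positive, from 0.016 to 0.14. The 2 pairs over 0.1 were of that time, and pairs 1, 3, 5 and 6 of 2 h were among the 7. Low read numbers limit Gpr165 and Lst1 most.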
